A study of Oncorhynchus mykiss with 48 samples.

Results

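The comparison set the livers of 4 F2 control trout at 112 days post fertilization (dpf) against those of 4 F1 control trout at 140 dpf, which are the control fish of the early (juvenile) stage in both generations. These 8 fish were chosen by their generation, age and treatment labels, and are 8 of 48 in the series. Each generation also has an older stage, sampled at 365 dpf, and each of the 4 combinations of generation and age holds 4 fish of 3 treatments. Treatment names refer to the amount of bisphenol A (BPA) in an egg that gave an F1 fish, which was 0 ng (Control), 4 ng (BPA4) or 40 ng (BPA40), and the F2 fish carry the name of their mothers' group. F2 controls grew from eggs of F1 control females. F1 controls grew from pooled eggs that had been kept for some hours in ovarian fluid with the ethanol vehicle and no BPA. Sperm of untreated males was used in both generations, and all fish were reared in clean water at the same station and fasted before sampling.

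The liver of a growing trout makes most of the proteins of the blood plasma, stores glycogen and lipid, and handles amino acids from the diet. A small number of secreted protein transcripts usually makes up a large part of its mRNA. Expression in this organ changes with growth, feeding and, later, sexual maturation. The control groups show how far 2 cohorts without BPA, here also 28 days apart in age, are from each other before any BPA group is considered.

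Generation, 28 days of age, body mass, rearing year and tank differ together between the 2 groups and cannot be told apart. Per the study's methods, F2 fish of a treatment shared a single tank and F1 fish came from replicate tanks. The labels give neither tank, body size nor library batch for a fish. The p-values below therefore set differences between these cohorts against the spread between their fish, and speak for these cohorts only. Genes are given by the identifiers of the genome annotation, 0 of which matched the reference table at hand. For that reason the liver label was not checked against marker genes, and no sequence is shown. In bulk tissue, fewer cells of a type and less RNA per cell cannot be told apart.

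The number of fragments assigned to genes differed between the groups as well. The F2 112 dpf controls had 10872959, 11506960, 10222167 and 9731895 fragments assigned to genes in replicates 0 to 3, against 12596696, 12441791, 13566799 and 12337139 in the F1 140 dpf controls. Every F2 fish had fewer such fragments than every F1 fish. Values that depend on this number are therefore also given at equal depth, after random thinning of each fish to 9731895 assigned fragments. The 12 genes that Cuffdiff marked as too abundant to process (HIDATA) at either age were left out of all 8 fish.

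The 2 groups were well separated over the whole transcriptome. Levels are given as CPM, the fragment count of a gene relative to the library total after TMM scaling, and were put on a log2 scale with a prior count of 2. The sum of squares between the groups was then 1.90 times that within them, so that the groups accounted for 65.6% of the spread. No other split of the 8 fish into 4 and 4 gave a larger ratio (exact permutation p = 0.0286 over 70 splits, the smallest that 4 against 4 fish allow). The planned values and the position on the BPA axis make 5 tests of this kind, each with an adjusted p of 0.0286. Adjusted together with 5 tests under other settings, 10 in all, these exact permutation p-values become 0.0571. The distance within groups is among them, and its p is only a description, for a reason given with its values. Pearson's r of log2 CPM across genes was between 0.933 and 0.963 in pairs of F2 fish and between 0.934 and 0.969 in pairs of F1 fish. Between an F2 and an F1 fish it lay between 0.778 and 0.893, below every pair within a group.

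**Figure D1:**
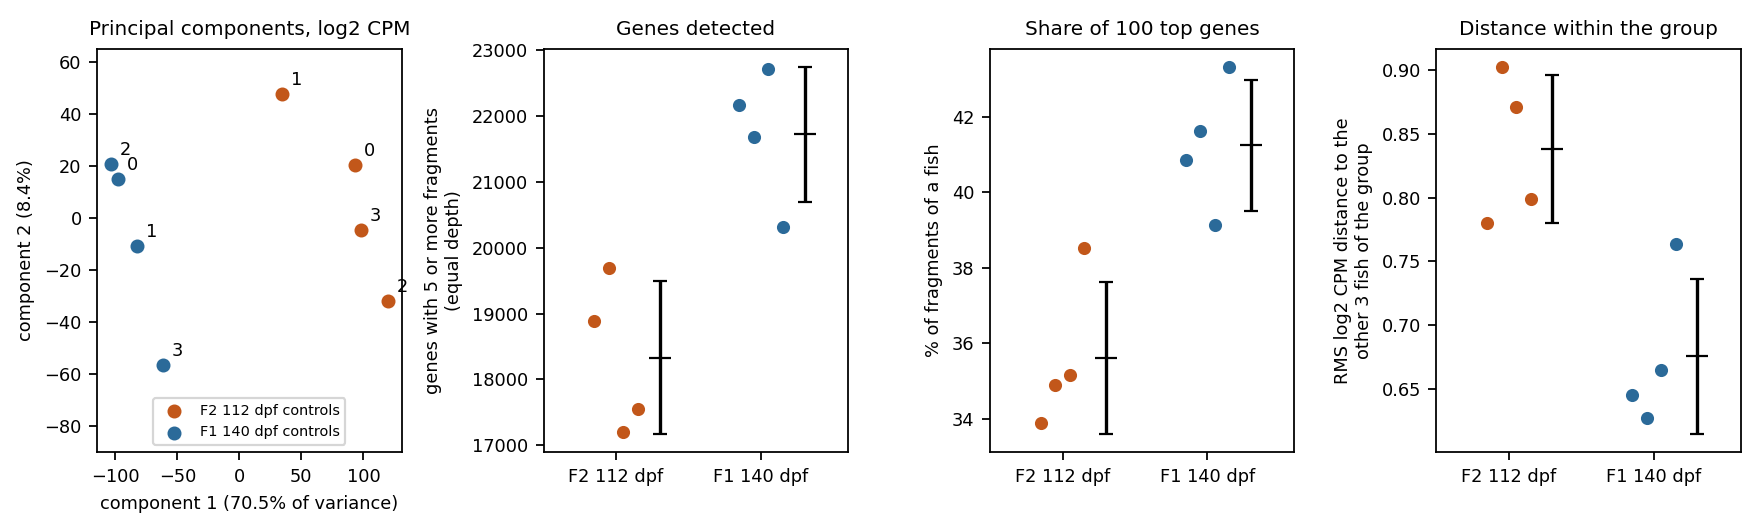
The leftmost panel plots the 8 control fish on the first 2 principal components of log2 CPM, labelled by replicate number. The other panels show 3 measures for each fish, with F2 112 dpf left of F1 140 dpf and bars giving the mean and SD of 4 fish. The first is the number of genes with at least 5 fragments at equal depth. Next is the percentage of its fragments in its 100 most abundant genes, with HIDATA genes left out. The last is its distance to the other fish of its group in log2 CPM. The groups do not overlap in these 3 measures, and F2 replicate 1 lies nearest to the F1 fish on component 1.

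The first principal component held 70.5% of the variance and divided the 2 groups, which differ in both generation and age. F2 replicates 0, 2 and 3 stood at 93.5, 119.7 and 98.2 on it, while F2 replicate 1 stood at 34.1. The F1 fish stood at -98.1, -82.2, -103.4 and -61.7. F2 replicate 1 was thus the F2 fish nearest to the F1 group, and F1 replicate 3 the F1 fish nearest to the F2 group. The mean distance of F2 replicate 1 to the F1 fish was 1.14 log2 CPM (root mean square over genes), whereas the other F2 fish were 1.48, 1.65 and 1.51 away. Both fish kept to the side of their own group.

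The F2 112 dpf livers held fewer detected genes than the F1 140 dpf livers. At equal depth, at least 5 fragments were found for 18881, 19691, 17205 and 17552 genes in the F2 fish, against 22164, 21676, 22706 and 20314 genes in the F1 fish. The F2 mean was 18332 ± 1159 genes and the F1 mean 21715 ± 1024 genes (SD, n = 4 each), a difference of -3383 genes (exact permutation p = 0.0286, two-sided). Without F2 replicate 2, F2 replicate 3 or F1 replicate 2 it was -3007, -3123 and -3052 genes, with an exact permutation p of 0.0571 each. F2 replicate 1, nearest to the F1 fish on the first component, had the most genes of its group. F1 replicate 3, nearest to the F2 fish, had the fewest of its own.

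Fragments were also spread differently over the most abundant of the genes kept. The 12 HIDATA genes are missing from the shares below and from their totals. Such genes are listed at 0 fragments, 10 of them in F1 140 dpf and 8 in F2 112 dpf. Shares that include them could therefore not be given. The 100 most abundant genes of each fish took 33.9%, 34.9%, 35.1% and 38.5% of the fragments of the F2 fish, against 40.9%, 41.6%, 39.1% and 43.3% in the F1 fish. The difference was -5.63 percentage points (exact permutation p = 0.0286, two-sided). Without any one of the 4 F1 fish it lay between -6.33 and -4.94 points, with an exact permutation p of 0.0571 each. For the 10 most abundant genes the difference was -2.57 points with overlapping groups (exact permutation p = 0.0571). For the 1000 most abundant genes it was -0.20 points (exact permutation p = 1). Fewer genes in all and a smaller share in the leading 100 genes were thus found in the same F2 livers.

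The F2 fish were also farther from each other. The mean distance of a fish to the other 3 of its group was 0.780, 0.902, 0.871 and 0.799 log2 CPM in the F2 fish, and 0.646, 0.628, 0.665 and 0.764 in the F1 fish. This difference of 0.16 had an exact permutation p of 0.0286, two-sided. At equal depth it was 0.12 and did not pass (exact permutation p = 0.0857). Each distance depends on the group labels and was not recomputed for each split, and fish of a group share pairs. The p-values of this measure are therefore a description and cannot decide whether the spread differed. The biological coefficient of variation was 34.5% in the F2 group and 28.8% in the F1 group.

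The majority of the genes tested differed between the groups. With the quasi-likelihood test of edgeR on fragment counts, 9947 of 17905 genes passed an adjusted p of 0.05, which is 55.6% of the genes tested. Of these, 4794 genes (26.8%) rose in the F2 112 dpf livers and 5153 genes (28.8%) fell, each relative to the F1 140 dpf livers. Genes that rose had a median log2 fold change of 1.2 (quartiles 0.88 and 1.62), and genes that fell a median of -1.60 (quartiles -2.21 and -1.14). The median over all genes tested was -0.11. In 8842 genes (49.4%), called or not, all 4 F2 fish lay on one side of all 4 F1 fish, 4416 of them with the F2 fish higher. Of the genes called, 8397 had groups that did not overlap.

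Among the genes tested, rises were more often small and falls more often large. The filter on low counts keeps a gene expressed in one group alone. Large changes can thus include genes nearly absent from the other group. Sizes of change were not counted under a filter that asks for fragments in every fish. Of the called genes that changed by less than 1 on the log2 scale, 1688 rose and 896 fell. At a change of at least 1 the numbers were 3106 and 4257. At a change of at least 2 they were 605 and 1654, and at a change of at least 3 they were 106 and 447. The extremes were a log2 fold change of 10.05 and of -8.30. The balance of directions depends on the scaling of the libraries. With upper-quartile factors 3695 genes rose and 6378 fell, with the median of all genes at -0.36. Without a scaling factor the numbers were 3895 and 5726, with the median at -0.29.

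Among the genes tested, direction went with the expression level of a gene. When genes were divided into 5 classes of equal size by their mean CPM over the 8 fish, 5.67% of the lowest class (0.546 to 1.84 CPM) rose and 36.4% fell. Of the highest class (28.6 CPM and above), 49.0% rose and 18.6% fell. The median log2 fold change was -0.78, -0.56, -0.09, 0.31 and 0.51 from the lowest to the highest class. A different scaling factor moves all classes by the same amount and leaves their order. The filter on low counts, however, keeps a gene that is expressed in either group alone. The lowest classes can thus hold genes admitted through the group where they are high. With at least 10 fragments in every fish, 12564 genes were tested, of which 3400 rose and 3599 fell (median log2 fold change -0.045). The order of classes was not tested with that filter.

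**Figure D2:**
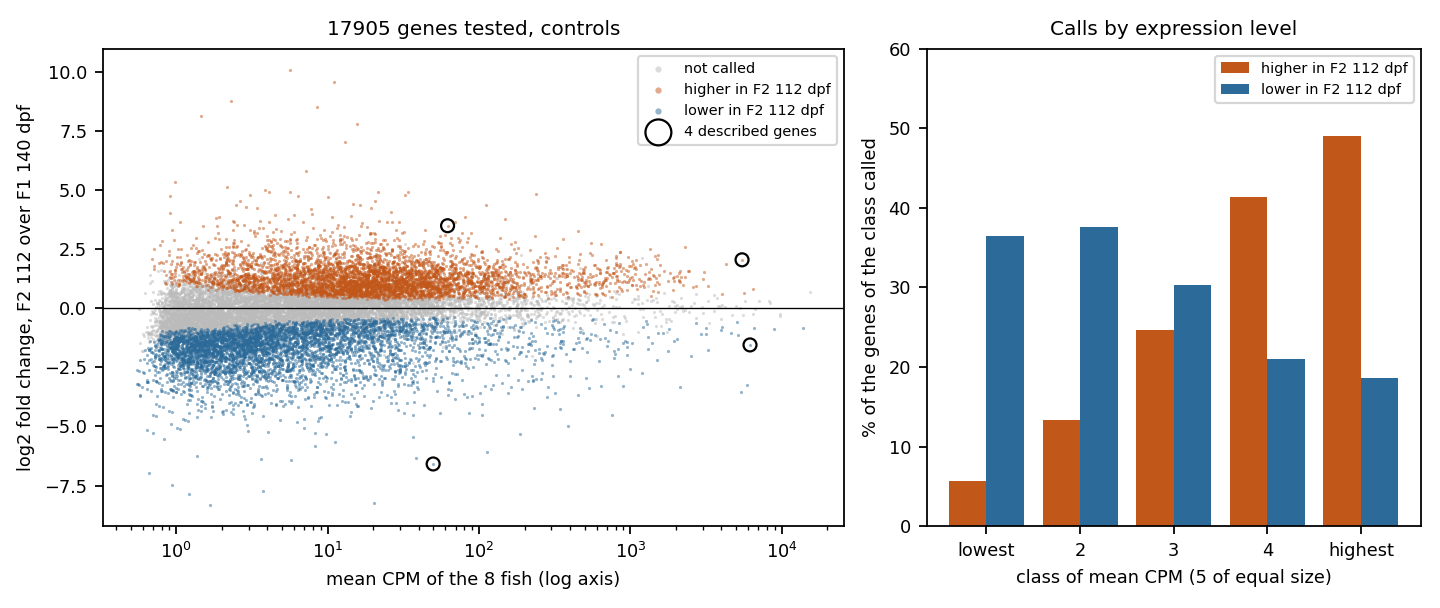
The wide panel plots the log2 fold change of each of 17905 genes (F2 112 dpf over F1 140 dpf controls) against its mean CPM on a log axis, coloured by call at an adjusted p of 0.05, with circles around the 4 genes described in the text. The bars give the percentage of each of 5 classes of mean CPM that was called higher and lower in F2 112 dpf; in the lowest class 5.67% were higher and 36.4% lower, and in the highest class 49.0% were higher and 18.6% lower.

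In terms of fragments, the genes that rose made up 55.7%, 44.4%, 53.1% and 50.6% of the F2 libraries, against 24.1%, 23.8%, 24.4% and 24.4% of the F1 libraries. The genes that fell made up 9.38%, 15.6%, 9.70% and 10.9% of the F2 libraries, against 35.1%, 33.3%, 34.3% and 32.6% of the F1 libraries. These shares follow from the calls and describe their weight among the fragments kept. Those fragments lack the HIDATA genes, and the shares are not corrected for transcript length. F2 replicate 1 had the lowest share of risen genes and the highest share of fallen genes among the F2 fish.

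The most abundant transcripts were partly exchanged. By mean CPM, 63 genes were among the 100 most abundant in both groups. Of these, 10 rose and 12 fell. Of the 37 genes found among the leading 100 in F2 112 dpf alone, 35 rose and 0 fell, and their median rank in the F1 fish was 153. Of the 37 found there in F1 140 dpf alone, 23 fell and 0 rose, with a median rank of 202 in the F2 fish. Genes among the leading 100 of a single group were picked by the levels of the same fish, so these directions follow from the choice. For comparison, 49.0% of the highest class of mean CPM rose and 18.6% fell. The farthest displacement was to rank 372 in F1 fish for the F2 genes and to rank 912 in F2 fish for the F1 genes. These ranks are among the genes tested, without the HIDATA genes. They are per fragment and not corrected for transcript length.

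Few genes were seen in one group alone. Only 4 genes had at least 5 fragments in every F2 fish and none in any F1 fish. The reverse held for 17 genes. The mean of their fragments over the fish that held them had a median of 37.1 in the F2 genes and 11 in the F1 genes. At equal depth the numbers of genes were 4 in F2 and 16 in F1. With at least 10 fragments they were 3 in F2 and 4 in F1.

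Of the 9947 calls, 7615 were also made in each of the 8 fits that left out a fish. A group of 5966 genes was called in all of these, changed by at least 1 on the log2 scale and had no overlap between the groups, with 2751 higher and 3215 lower in F2. From these, the gene with the highest mean CPM and the gene with the smallest p were taken in each direction. Calls in the 8 fits without a fish were part of the choice. Under the other alternatives in which they were tested, the genes taken kept the sign of their log2 fold change and stayed called.

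GSONMT00007231001 had the highest mean CPM of the 2751 genes of this group that rose. It had 9771, 5463, 9740 and 10240 CPM in the F2 fish, against 2074, 1853, 1918 and 2694 CPM in the F1 fish. The groups did not overlap, as the choice required, and F2 replicate 1 was clearly the lowest of its group. The log2 fold change was 2.04 ± 0.26 (SE), or 4.12-fold, with an adjusted p of 0.000177 in edgeR. Among the genes tested, it was the gene of rank 6 in the F2 livers and of rank 65 in the F1 livers.

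GSONMT00081668001 had the smallest p of the same genes. It had 106, 83.8, 139 and 126 CPM in the F2 fish, against 10.7, 10.0, 9.25 and 10.6 CPM in the F1 fish. The F1 fish were close together, and every F2 fish was several times above them. The log2 fold change was 3.48 ± 0.20 (SE), or 11.2-fold (edgeR adjusted p = 2.1e-05).

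GSONMT00018754001 had the highest mean CPM of the 3215 genes of this group that fell. It had 2568, 3788, 2942 and 3254 CPM in the F2 fish, against 9359, 10988, 6366 and 10128 CPM in the F1 fish. Its rank among the genes tested was 44 in the F2 livers and 8 in the F1 livers. The log2 fold change was -1.55 ± 0.24 (SE), or 2.93-fold lower in the F2 livers (edgeR adjusted p = 0.000483).

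GSONMT00025454001 had the smallest p of these fallen genes. It was near the limit of detection in the F2 fish, with 6, 13, 5 and 16 fragments or 0.555, 1.09, 0.558 and 1.95 CPM. The F1 fish had 106, 102, 119 and 67.2 CPM, from 1412, 1362, 1828 and 815 fragments. The log2 fold change was -6.58 ± 0.39 (SE), or 96.0-fold lower in the F2 livers (edgeR adjusted p = 2.1e-05).

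**Figure D3:**
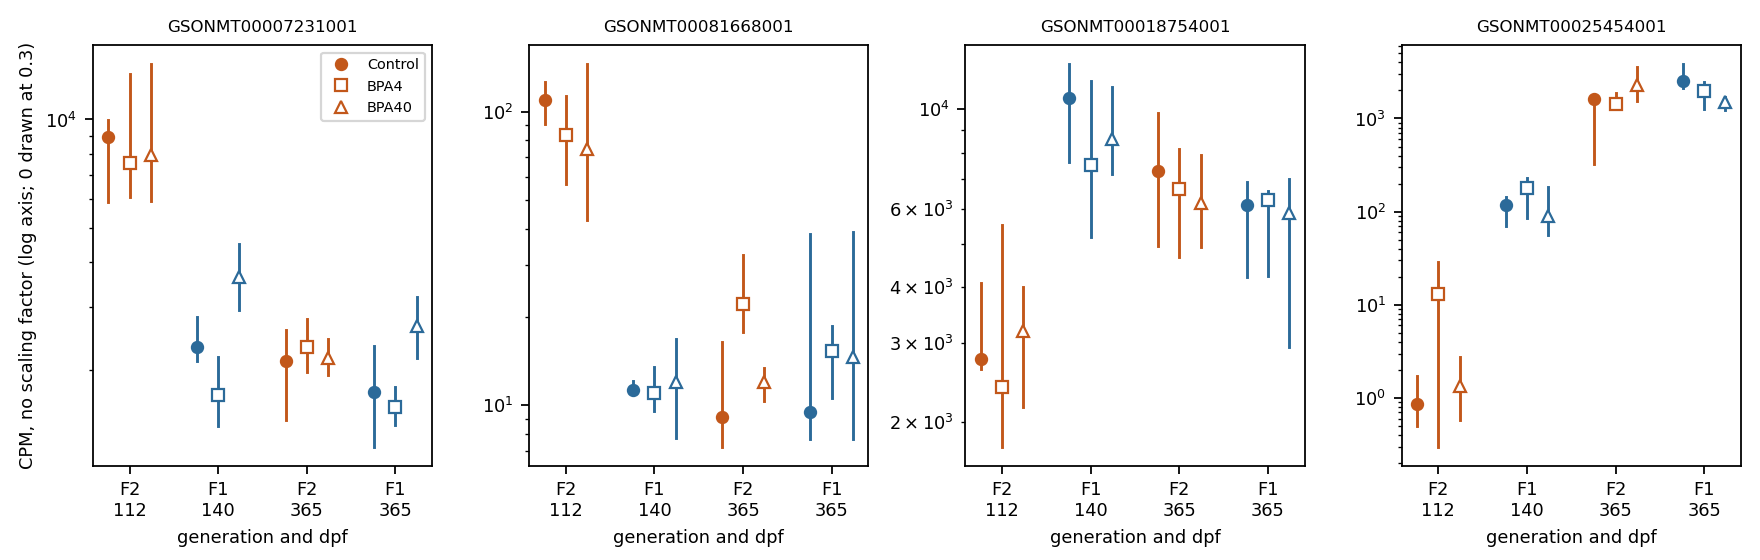
Each panel shows one gene in the 12 groups of the series, in CPM without a scaling factor on a log axis, with points at the median and lines from the lowest to the highest of 4 fish (a value of 0 is drawn at 0.3). Filled circles are controls, squares BPA4 and triangles BPA40; GSONMT00025454001 has a median of 0.870 in F2 112 dpf controls, 118 in F1 140 dpf controls, 1614 in F2 365 dpf controls and 2517 in F1 365 dpf controls.

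The same contrast was then made in the fish of the other treatments, which share no fish with the controls. It is called the contrast of generations for short, although age differs along with generation at the early stage. In BPA4, 7651 of 17770 genes were called (43.1%), with 3672 higher (20.7%) and 3979 lower (22.4%) in F2 112 dpf. In BPA40, 7345 of 17950 genes were called (40.9%), with 3632 higher (20.2%) and 3713 lower (20.7%). Without a scaling factor, 2275 were higher and 5114 lower in BPA4, and 1750 were higher and 5491 lower in BPA40, with medians over all genes of -0.49 and -0.59. Of the control genes that rose, 4692 were tested in BPA4, where 3160 rose as well and 5 fell. Of those that fell, 4878 were tested in BPA4, where 3177 fell and 3 rose. In BPA40, 3091 of 4727 rose and 3 fell, and 2986 of 4808 fell and 2 rose.

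Control genes that rose had a median log2 fold change of 1.2 in BPA4 and 1.05 in BPA40, against medians of -0.12 and -0.11 over all genes tested there. Control genes that fell had a median of -1.53 in BPA4 and -1.35 in BPA40. Across genes, the log2 fold changes of controls had a Pearson's r of 0.873 with those of BPA4 (17008 genes) and of 0.867 with those of BPA40 (17110 genes). Genes are not independent replicates, and the fish of the treatments share cohort, age and the 2 deposited tables. Of 16659 genes tested in all 3 treatments, 2629 rose in each, which is 56.2% of the control genes that rose, and 2362 fell in each, which is 50.3% of those that fell. A number of 0 genes was called in all 3 with mixed directions. Of the 17905 genes tested in the controls, all 12 F2 fish lay above all 12 F1 fish in 1714 and below them in 1427, together 17.5%.

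**Figure D4:**
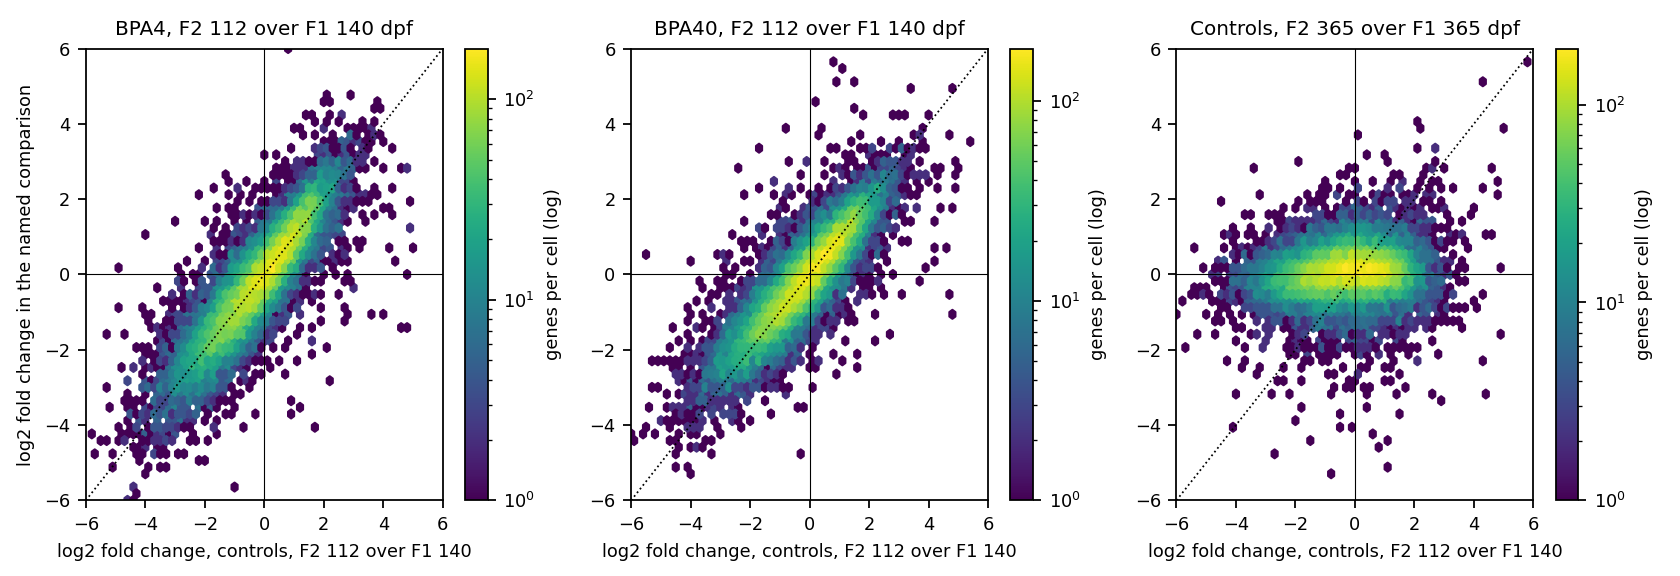
Each panel plots the log2 fold change of F2 112 dpf over F1 140 dpf in controls (x axis) against the log2 fold change of the comparison named above it (y axis), with the number of genes in a cell as colour on a log scale and the dotted line marking equal values; genes beyond 6 in either direction are not drawn. The genes lie along the dotted line in BPA4 (r = 0.873) and BPA40 (r = 0.867), and around the horizontal zero line in the comparison of controls at 365 dpf (r = 0.152).

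A test of the difference itself found almost no gene in which the contrast of generations depended on treatment. The interaction with BPA4 was called in 0 of 21429 genes (0%) by edgeR, with 1268 genes at an unadjusted p under 0.05 and 25 genes called by DESeq2. The interaction with BPA40 was called in 1 gene (0.00467%) by edgeR, with 1122 genes at an unadjusted p under 0.05 and 29 called by DESeq2. A missing call does not show that the treatments act alike. Of the genes described above, GSONMT00081668001 had a log2 fold change of 3.33 ± 0.28 in BPA4 and 3.38 ± 0.47 in BPA40 (SE). GSONMT00007231001 changed by 2.78 ± 0.42 in BPA4 and 1.92 ± 0.44 in BPA40, and GSONMT00025454001 by -3.22 ± 0.96 and -5.60 ± 0.48. These 6 values passed the test, with edgeR adjusted p from 0.000119 to 0.0185. GSONMT00018754001 had a log2 fold change of -1.0 ± 0.45 in BPA4 (edgeR adjusted p = 0.0933) and fell by 1.00 ± 0.32 in BPA40 (adjusted p = 0.0266). The largest difference from the controls among these genes was that of GSONMT00025454001 in BPA4, 3.32 ± 1.02 (log2, SE; edgeR adjusted p = 0.559).

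The control fish were placed on the axis defined by the 16 early BPA fish, with the mean of the F1 140 dpf BPA fish at 0 and that of the F2 112 dpf BPA fish at 1. The F2 controls stood at 0.978, 0.643, 1.08 and 1.01, against -0.055, 0.030, -0.078 and 0.136 for the F1 controls. The means were 0.93 ± 0.19 and 0.01 ± 0.10 (SD, n = 4 each; exact permutation p = 0.0286, two-sided). F2 replicate 1 and F1 replicate 3 were again the fish closest to the other group. No control fish entered the means that set this axis, but its genes were those that passed the filter in the control fish.

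At 365 dpf, when both generations were sampled at the same age, far fewer genes were called between the controls. A count of calls also depends on the spread between fish, which was not compared between the stages. Of 24053 genes tested, 8 were called by edgeR (0.0333%), 3 higher (0.0125%) and 5 lower (0.0208%) in F2 365 dpf than in F1 365 dpf. This count was 3127 at an unadjusted p under 0.05 and 708 by DESeq2. It was 123 without F1 365 dpf replicate 1, 5 without F1 replicate 2, 3 without F1 replicate 3 and 0 without F2 replicate 1 or 2. Without F2 365 dpf replicate 0, which had the fewest genes with 5 fragments of its group (24568), it was 10. In CPM without a scaling factor, groups that did not overlap were found in 10.8% of genes at 365 dpf and in 47.7% at the early stage. At 365 dpf the F2 fish were higher in 2163 of these genes and lower in 424. At the early stage these numbers were 3721 and 4822. The genes tested differed, with 24053 at 365 dpf and 17905 at the early stage. Without a scaling factor, the median log2 fold change over all genes tested was 0.18 at 365 dpf and -0.29 at the early stage.

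With 8 of 24053 genes called at 365 dpf, few genes of any list could be called there. Of 4640 early risen genes tested there, 2 were called higher and 1 lower in F2, with a median log2 fold change of 0.08. Those called higher were 0.0431% of these genes, against 0.0125% of all genes tested. Of 5125 early fallen genes, 1 was called lower and 0 higher, with a median of -0.04. The share called lower was 0.0195%, against 0.0208% of all genes tested. The median over all genes tested at 365 dpf was 0.02. In the 16 controls together, the contrast of generations differed between the early stage and 365 dpf in 7381 of 24236 genes (30.5%), 3448 of them with a more positive and 3933 with a more negative value at the early stage. Without a scaling factor these numbers were 1943 and 7064. Of the 7381 genes, found with TMM scaling, 6281 were tested in the early controls. There 5818 of them were called (92.6%, against 55.6% of all genes tested), which is 58.5% of the early calls. The early fish are shared between both tests. The 4 described genes were chosen for their contrast in the early fish that enter this test, so their values are a description. Their differences were 2.08 ± 0.41 for GSONMT00007231001, 4.47 ± 0.63 for GSONMT00081668001, -1.61 ± 0.41 for GSONMT00018754001 and -5.12 ± 0.62 for GSONMT00025454001 (log2, SE). Age, tank and cohort differed between the generations at the early stage, and tank and cohort at 365 dpf. What made the contrasts differ between the stages was not tested.

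In the lists of genes called between the early controls, the medians of the F2 112 dpf groups lay farthest from the mean of the 12 groups. For each gene, the mean log2 CPM of a group was taken relative to the mean over the 12 groups. Genes that rose had a median of 1.03 in F2 112 dpf controls, -0.13 in F1 140 dpf controls, -0.45 in F2 365 dpf controls and -0.49 in F1 365 dpf controls. Genes that fell had medians of -1.46, 0.19, 0.64 and 0.75 in the same groups. All genes tested had medians of -0.10, 0.01, 0.10 and 0.03. In both lists the F1 140 dpf controls thus lay between the F2 112 dpf controls and the controls of either generation at 365 dpf. The lists were chosen for the contrast of the first 2 of these groups, so their difference follows from the choice. The place of these 2 groups among the others is a description. The BPA groups lay close to the controls of their own age and generation, with 0.90 and 0.98 for risen genes in F2 112 dpf BPA4 and BPA40, and -0.18 and -0.03 in F1 140 dpf BPA4 and BPA40.

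**Figure D5:**
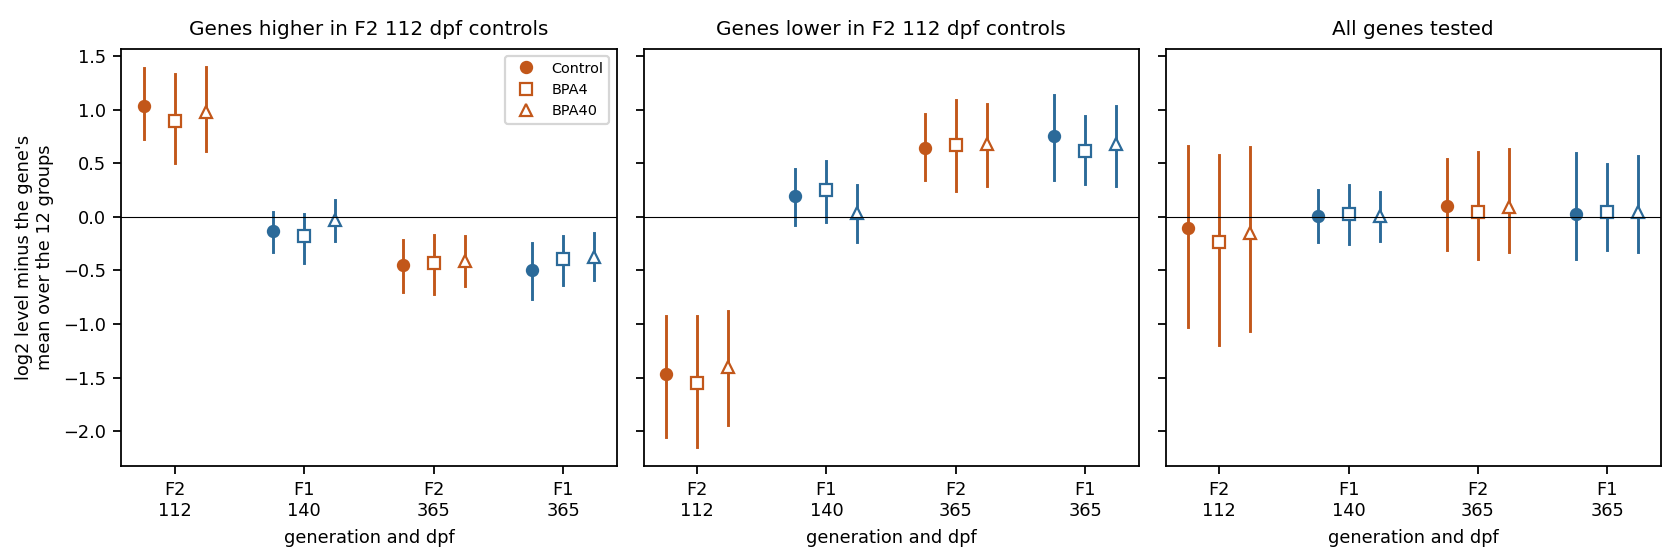
Points show the median and lines the quartiles, over genes, of the mean log2 CPM of a group minus the mean of the 12 groups, for the 4794 genes higher and 5149 of the genes lower in F2 112 dpf controls and for all genes tested. Within each generation and age, the filled circle is the control, the square BPA4 and the triangle BPA40; the F2 112 dpf groups are highest for risen genes (1.03 in controls) and lowest for fallen genes (-1.46 in controls).

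The 4 described genes differ in their course over the 12 groups. In CPM without a scaling factor, GSONMT00007231001 had a median of 8933 in F2 112 dpf controls and 2321 in F1 140 dpf controls, with 2122 and 1743 in the F2 and F1 controls at 365 dpf. GSONMT00081668001 had medians of 110, 11.3, 9.11 and 9.52 in this order. Among the control groups both genes were thus high in F2 112 dpf alone, and their ranges at 365 dpf overlapped between generations. GSONMT00018754001 had medians of 2770, 10580, 7262 and 6099, so that it was lowest in F2 112 dpf and highest in F1 140 dpf. GSONMT00025454001 had medians of 0.870, 118, 1614 and 2517, the F1 140 dpf fish being far above the F2 112 dpf fish and far below both groups at 365 dpf. At 365 dpf, this gene ranged from 329 to 1747 in F2 and from 2121 to 3802 in F1 controls, without a call (log2 fold change -1.28 ± 0.43 SE, edgeR adjusted p = 0.263).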

How the data were processed

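Liver RNA was sequenced from 48 fish, 8 of which were compared here. The authors trimmed reads with bcl2fastq, mapped them with Bowtie 2.2.6 and TopHat 2.1.0 and quantified genes with Cufflinks and Cuffdiff. The deposited tables, one for each age and generation, hold fragment counts of 46585 genes, without normalization, and FPKM, which Cuffdiff scaled over the 12 fish of a table. Counts were joined on the gene identifier; the deposited FPKM were used only to derive effective length, and 8 columns of scaled fragments were not used. Replicates are separate fish, and none of 12 pairs of a group were duplicates (chi-square per degree of freedom 23.7 to 60.4). The titles of the early F2 samples give 140 dpf, whereas their age label and the methods give 112 dpf, which was used.

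The main test was glmQLFTest of edgeR 4.0.16 (R 4.3.3) with TMM factors, filterByExpr, no covariates and Benjamini-Hochberg adjustment at 0.05, on the 8 fish of a contrast (16 or 24 fish for interactions). Cuffdiff itself needs the reads. The genes tested held 99.3% to 99.8% of the fragments of a fish. CPM use TMM. Values per fish were compared by exact permutation, in which distances within groups were not recomputed for each split. Alternatives were DESeq2 1.42.0, limma-voom (limma 3.58.1), other factors and filters, thinning, a replicate block and leaving out each fish. The scripts were tried on simulated data. Figures were drawn in Python 3.11.15 (matplotlib 3.10.9).

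The fish, lists, tests and the rule for describing genes were chosen with earlier results of these data known. The rule took genes called in the main test and in all 8 fits without a fish, changed by at least 1 (log2) and without overlap, and then the highest mean CPM and the smallest p in each direction.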

Additional observations from a re-analysis of the deposited data

Results flagged for a closer look

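GSONMT00007231001 was at 5463 CPM in F2 112 dpf replicate 1, far below the other 3 F2 fish (9740 to 10240 CPM), whose spread was small by comparison. It was the only one of 20 groups of 4 fish examined in which a fish stood so far from the rest, and chance gives about 1 in 20.

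The contrast of generations differed between the early stage and 365 dpf in 7381 genes by the interaction test of edgeR in the 16 controls. Age, tank and cohort differ together at the early stage and cannot be told apart.

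The contrast of generations differed between BPA40 and controls in 1 gene, GSONMT00016896001, singled out after its values were seen (log2 difference -9.30 ± 1.42 SE, edgeR adjusted p = 0.0173). It had 0, 0, 0 and 1 fragments in F2 112 dpf BPA40 fish and 20, 18, 20 and 0 in F2 112 dpf controls. It had 18, 28, 15 and 38 fragments in F1 140 dpf BPA40 fish and 1, 0, 3 and 1 in F1 140 dpf controls. With several fish at 0, the fitted difference depends on the prior count and is no bound. Of 8 repeats with 7 control fish, 3 gave no call.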

How the results depend on the processing

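The number of genes called between the early controls lay between 6999 and 11601 under the alternatives, and between 8598 and 11208 when a fish was left out (highest without F2 112 dpf replicate 1). With the replicate number as a block it was 8950. The numbers do not pair the fish, since deviations of fish with the same number correlated between -0.199 and 0.134, and not every fish correlated best with its own number. The block changed the counts to 7008 in BPA4 and 5131 in BPA40. At 365 dpf, 2 genes were called with the block, 21 without TMM, 83 without a filter on low counts and 708 by DESeq2, and from 0 to 123 without a fish. The interaction with BPA4 gave 25 genes by DESeq2 and 0 to 1 without a fish, that with BPA40 gave 29 by DESeq2 and 0 to 3 without a fish. The cause was not tested.

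The share of fragments differed by -2.57 points for the 10 and -0.20 points for the 1000 most abundant genes (exact permutation p = 0.0571 and 1), and by -6.60 to -4.94 points for 100 genes without a fish. The difference in distance within groups was 0.12 at equal depth, 0.11 with a prior count of 5 and 0.10 when each fish had to hold 10 fragments of a gene (exact permutation p = 0.0857 each). These p-values, too, come from distances that were not recomputed for each split. With at least 10 fragments, 7 genes were seen in one group alone, 3 in F2 and 4 in F1. The difference in genes detected lay between -3850 and -3007 without a fish. Without a fish, the exact permutation p passed in 5 of 8 repeats for genes detected, in 4 of 8 for the share of 100 genes and in 8 of 8 for separation, and was 0.0571 in the others.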

Other observations

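Direction showed no such order along gene length. In 5 classes of effective length (fragments divided by FPKM, available for 97.9% of the genes tested), 27.4%, 28.5%, 27.4%, 27.3% and 25.6% of genes rose in F2 112 dpf from the shortest to the longest class. In the same classes 31.1%, 26.3%, 27.1%, 25.5% and 27.0% fell. The median log2 fold change lay between -0.22 in the shortest class and -0.01 in the fourth.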
